A study of Mus musculus with 4 samples.

Results

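Expression was followed for 10 mouse genes that encode the TGFβ ligands (Tgfb1, Tgfb2, Tgfb3), their receptors (Tgfbr1, Tgfbr2, Tgfbr3) and proteins grouped here as latency proteins (Ltbp1, Ltbp2, Ltbp3, Lrrc32). They were picked by symbol, all 10 were found among the 21971 genes of the count table, and all 10 passed the filter on low counts, although Tgfbr3 averaged only 0.337 CPM, the count scaled to library size. The cells were NMuMG, a mouse mammary epithelial line often used to study the epithelial-to-mesenchymal transition that TGFβ induces, and all were grown with serum and insulin. The 4 groups, with 1 RNA-seq library each, were Vp16-TRF1ΔN cells after 24 h of TGFβ at 5 ng/ml, Vp16-TRF1ΔN cells at 0 h, TRF1ΔN cells after 24 h of TGFβ at 5 ng/ml, and TRF1ΔN cells at 0 h. Both lines stably carry a mutated human TRF1, a protein of telomeric chromatin, and in Vp16-TRF1ΔN it is fused to the viral Vp16 transcription activation domain. The study used the fusion to raise telomeric TERRA-like RNA and asked how the transition's expression signature then changes. The promoter that drives the constructs, whether each line is a clone, and the isoform of the added ligand are not given in the labels.

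TGFβ ligands are secreted as dimers still bound to their own propeptide, which holds them inactive. Latent TGFβ binding proteins (LTBPs) anchor that complex in the matrix, and GARP, the product of Lrrc32, tethers it at the cell surface, for which it is known in regulatory T cells and platelets. Integrins, proteases and thrombospondin can release the active ligand, which binds the type II receptor, a kinase that phosphorylates the type I receptor. The type I receptor in turn phosphorylates Smad proteins. In mammary epithelium the pathway restrains growth and can drive the transition to a mesenchymal state.

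The libraries held 35418985 to 45983910 gene counts, and mitochondrially encoded genes took 15.7% and 11.4% of them in Vp16-TRF1ΔN cells at 24 h and 0 h, and 13.3% and 10.2% in TRF1ΔN cells at 24 h and 0 h. The VP16 construct row had 27 and 15 counts in the Vp16-TRF1ΔN libraries at 24 h and 0 h, against 1 and 0 counts in the TRF1ΔN libraries. The TRF1DN row had 159 and 123 counts in the Vp16-TRF1ΔN libraries, against 7798 and 1863 in the TRF1ΔN libraries; the part of this difference in construct RNA in any result was not tested. Of 8 mammary epithelial markers 6 were among the rows analysed, with a summed level of 6128 to 6417 CPM in the 4 libraries. That sum was carried by Krt8 and Krt18, which rose, while 3 of the 6 fell and the median log2 change was -0.88. Krt19 had 270.03 and 82.7 CPM at 24 h in Vp16-TRF1ΔN and TRF1ΔN cells, against 1648 and 1565 CPM at 0 h. Cdh1, which encodes E-cadherin, had 166 and 107 CPM at 24 h, against 368 and 366 CPM at 0 h, and Muc1 had 3.94 and 2.59 CPM at 24 h, against 33.2 CPM in both lines at 0 h. The log2 changes were -3.42 ± 0.44 for Krt19, -1.46 ± 0.16 for Cdh1 and -3.37 ± 0.17 for Muc1, with adjusted p of 0.00544, 0.00398 and 0.00105 in edgeR's quasi-likelihood test. Epcam had at most 18 counts in a library and did not pass. The part of this loss of epithelial markers in the changes below was not tested. Of 7 fibroblast markers 5 were in the table, and their sum was 12.1 CPM in Vp16-TRF1ΔN cells and 21.6 CPM in TRF1ΔN cells at 24 h, against 1.95 and 1.36 CPM at 0 h. Col1a1 made up most of that sum, while Dcn and Col3a1 had at most 2 counts in a library. Of 5 megakaryocyte and platelet markers 4 were in the table, with sums of 1.35 to 1.93 CPM. Of 6 regulatory T cell markers only Ikzf2 was among the rows analysed, at 287 to 767 counts, and the leukocyte gene Ptprc had 1 to 7 counts. Of 5 basal markers all were in the table, and their sum was 26.3 and 17.1 CPM at 24 h in Vp16-TRF1ΔN and TRF1ΔN cells, against 71.5 and 63.1 CPM at 0 h. A single gene, with 2978 counts in an untreated library, made up most of that library's sum. Of the 4 basal markers tested, 1 rose, 2 fell and 1 did not pass, against 23.1% of all genes rising and 25.4% falling. Trp63 was not tested. In bulk RNA, fewer cells of a type and less RNA per cell cannot be told apart.

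The first question was what 24 h of TGFβ did to the pathway's own genes. All 3 ligand genes, all 3 LTBP genes and Lrrc32 rose, and none of the 3 receptor genes passed the test. The changes ran from a log2 change of 0.77 (Ltbp3) to 3.66 (Lrrc32), and the largest belonged to Lrrc32 and Ltbp2. Of all 14305 genes tested 48.5% passed, 23.1% rising and 25.4% falling, against 7 of the 10 rising and 0 falling. At least 2-fold rises were shown by 4 members (Tgfb3, Ltbp1, Ltbp2 and Lrrc32) and by 8.61% of all genes. The median log2 change of the 10 genes was 0.86, and that of all genes tested was -0.01. The test was edgeR's quasi-likelihood test of an additive fit on line and TGFβ, adjusted over all genes tested, with calls at an adjusted p under 0.05. It treats a difference between the lines' responses as noise, has 1 residual degree of freedom, and measures only the spread among these 4 libraries, which the labels do not say came from separate cultures. No 24 h library without TGFβ was analysed here, so TGFβ and time in culture cannot be told apart.

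Levels were compared between genes as CPM per kilobase of annotated exon (RPKM), since counts alone favour long genes. In both untreated libraries Tgfbr1 was the most abundant of the 10, at 39.6 RPKM in Vp16-TRF1ΔN cells and 35.3 RPKM in TRF1ΔN cells. Ltbp1 and Tgfbr2 came next and were not separated by their 95% counting intervals, at 20.9 and 20.1 RPKM in Vp16-TRF1ΔN cells and at 20.6 and 19.9 RPKM in TRF1ΔN cells. Ltbp3, Tgfb1 and Tgfb2 followed in that order in both untreated libraries. After 24 h of TGFβ Ltbp1 was the most abundant, at 49.2 RPKM in Vp16-TRF1ΔN cells and 60.3 RPKM in TRF1ΔN cells. Tgfbr3 was the least abundant in every library, at 0.0312 and 0.0248 RPKM in Vp16-TRF1ΔN cells and 0.0472 and 0.103 RPKM in TRF1ΔN cells at 24 h and 0 h. In the Vp16-TRF1ΔN library at 0 h, Ltbp2 (0.315 RPKM) and Lrrc32 (0.193 RPKM) were close to the bottom and their intervals touched.

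**Figure D1:**
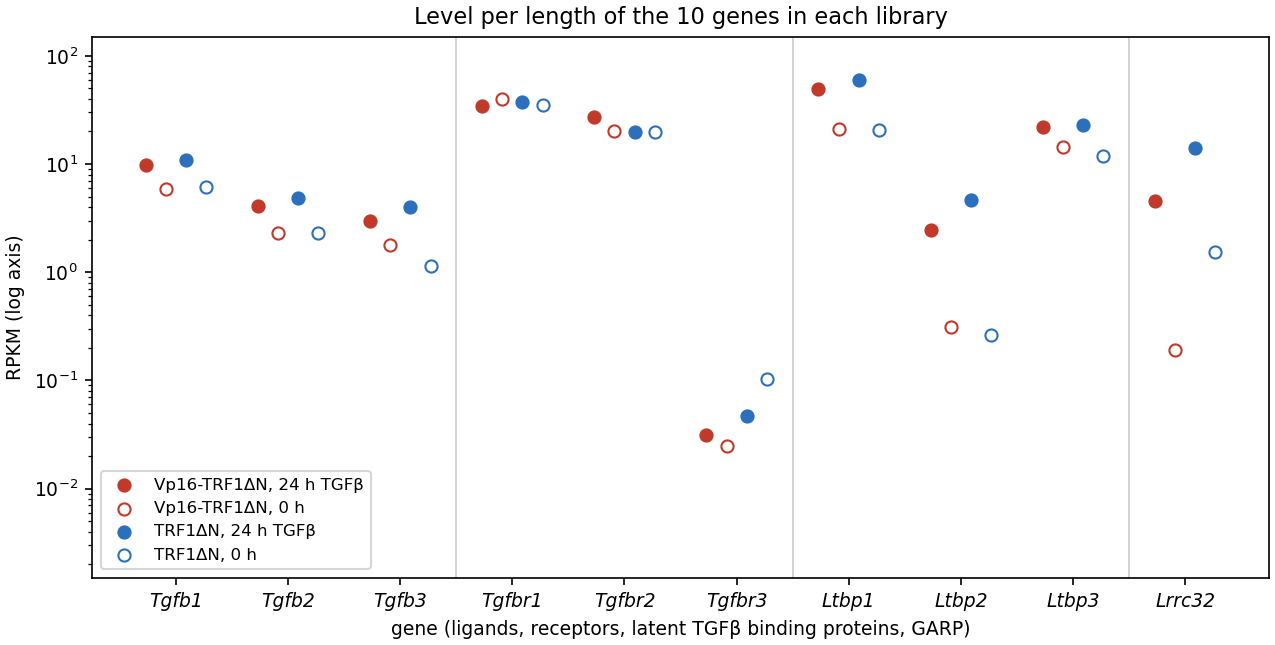
RPKM on a log axis (vertical) of the 10 genes (horizontal), 1 point per library, with filled points for 24 h of TGFβ, open points for 0 h, red for Vp16-TRF1ΔN and blue for TRF1ΔN. The filled points of ligands, LTBP genes and Lrrc32 lie above the open points of the same line, those of Tgfbr1 lie within 34.4 to 39.6 RPKM with the open ones, and Tgfbr3 stays at or below 0.103 RPKM.

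Among the ligands, Tgfb1 is the isoform best known for autoinduction and for its part in fibrosis. It is annotated at chr7:25687002-25705077 on the plus strand (GRCm38, the build that mm10 denotes). Tgfb1 had 49.4 and 55.2 CPM at 24 h in Vp16-TRF1ΔN and TRF1ΔN cells, against 29.6 and 30.9 CPM at 0 h. Both treated libraries lay above both untreated ones, and the log2 change was 0.79 ± 0.07 (SE) with an adjusted p of 0.00279 in edgeR's quasi-likelihood test. The ratio of 24 h over 0 h was 1.67 in Vp16-TRF1ΔN cells (95% counting interval 1.55 to 1.79) and 1.79 in TRF1ΔN cells (1.67 to 1.91), so the intervals overlapped.

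Tgfb2, whose product binds the type II receptor poorly without a co-receptor, lies at chr1:186622792-186705989 on the minus strand. It had 23.6 and 27.8 CPM at 24 h in Vp16-TRF1ΔN and TRF1ΔN cells, against 13.5 and 13.3 CPM at 0 h. The libraries did not overlap between times, and it rose by 0.94 ± 0.10 on the log2 scale (adjusted p = 0.00381, edgeR quasi-likelihood test). Its ratio was 1.75 (1.57 to 1.95) in Vp16-TRF1ΔN cells and 2.09 (1.896 to 2.31) in TRF1ΔN cells.

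Tgfb3, at chr12:86056745-86079041 on the minus strand, encodes the isoform known for palate fusion and for low scarring. It had 9.98 and 13.5 CPM at 24 h in Vp16-TRF1ΔN and TRF1ΔN cells, against 6.03 and 3.86 CPM at 0 h. The times did not overlap, and it rose by 1.26 ± 0.29 on the log2 scale (adjusted p = 0.0242, edgeR quasi-likelihood test). Tgfb3 lost its call when the TRF1ΔN library at 0 h was left out together with the line term (log2 change 0.96, adjusted p = 0.0828). Its ratio was 1.65 (1.404 to 1.95) in Vp16-TRF1ΔN cells and 3.49 (2.95 to 4.15) in TRF1ΔN cells.

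Per length, Tgfb1 made up most of the ligand RNA in each library. Its share of the summed RPKM of the 3 ligands was 58.2% and 58.8% in Vp16-TRF1ΔN cells at 24 h and 0 h, and 55.5% and 64.03% in TRF1ΔN cells at 24 h and 0 h. The share of Tgfb3 was 17.5% and 17.9% in Vp16-TRF1ΔN cells, and 20.2% and 11.9% in TRF1ΔN cells. The share of Tgfb2 stayed between 23.3% and 24.3% in the 4 libraries.

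The promoters of Tgfb1 and Tgfb2 are shown as those of the 2 most abundant ligand genes, both of which rose. Each window of 300 bases runs from 250 bases before the RefSeq start to 50 after it, and was searched on both strands for 4 motifs, with matches in capitals. The core element bound by Smads was searched as CAGAC. The element bound by AP-1, a complex of Fos and Jun proteins, was searched as TGANTCA. The E-box to which Snail and Zeb repressors bind was searched as CAGGTG. The TATA box, which places the start of many genes, was searched as TATAAA. Such letters are common, since 49.6%, 7.81%, 20.2% and 13.6% of 32851 RefSeq promoter windows of the same length hold them, in that order.
Tgfb1, chr7:25686752-25687051, plus strand: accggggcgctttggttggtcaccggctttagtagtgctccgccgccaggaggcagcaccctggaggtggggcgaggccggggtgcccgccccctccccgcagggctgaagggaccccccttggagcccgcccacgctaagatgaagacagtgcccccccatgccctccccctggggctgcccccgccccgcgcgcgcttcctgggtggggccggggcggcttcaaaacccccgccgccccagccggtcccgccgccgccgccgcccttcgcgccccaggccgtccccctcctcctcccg
Tgfb2, chr1:186705940-186706239, minus strand: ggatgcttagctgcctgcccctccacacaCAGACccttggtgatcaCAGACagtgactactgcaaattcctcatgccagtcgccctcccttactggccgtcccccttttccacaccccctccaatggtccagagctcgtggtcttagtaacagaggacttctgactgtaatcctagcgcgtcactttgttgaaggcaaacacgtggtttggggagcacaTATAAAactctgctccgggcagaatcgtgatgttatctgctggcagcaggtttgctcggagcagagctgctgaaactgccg
The Tgfb1 window is 77.0% G and C and holds none of the 4 motifs. The Tgfb2 window, at 54.3%, holds 2 CAGAC matches at positions -221 and -204 and a TATA box at -31 relative to the start.

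None of the receptor genes passed the test. Tgfbr1, the type I receptor kinase, lies at chr4:47353222-47414931 on the plus strand. It had 225.04 and 244 CPM at 24 h in Vp16-TRF1ΔN and TRF1ΔN cells, against 259 and 231 CPM at 0 h. Its treated and untreated libraries overlapped, and the log2 change was -0.06 ± 0.09 with an adjusted p of 0.622 in edgeR's quasi-likelihood test. The ratios were 0.8696 (0.845 to 0.895) in Vp16-TRF1ΔN cells and 1.06 (1.03 to 1.09) in TRF1ΔN cells, on opposite sides of 1.

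Tgfbr2, the ligand-binding type II kinase, lies at chr9:116084293-116175360 on the minus strand. It had 222 and 160.4 CPM at 24 h in Vp16-TRF1ΔN and TRF1ΔN cells, against 165 and 163 CPM at 0 h. The treated Vp16-TRF1ΔN library stood above the other 3, which lay within 160.4 to 165 CPM. The average log2 change was 0.20 ± 0.12, with an adjusted p of 0.239 in edgeR's quasi-likelihood test. Without the treated TRF1ΔN library and without the line term it was 0.42, with an adjusted p of 0.00590. The ratio of 24 h over 0 h was 1.35 (1.305 to 1.39) in Vp16-TRF1ΔN cells and 0.985 (0.953 to 1.02) in TRF1ΔN cells.

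Tgfbr3, which encodes betaglycan, a co-receptor that presents ligand to the type II receptor, lies at chr5:107106570-107289629 on the minus strand and was barely detected. It had 7 and 13 counts at 24 h in Vp16-TRF1ΔN and TRF1ΔN cells, against 7 and 32 counts at 0 h. Only the untreated TRF1ΔN library stood apart, and the log2 change of -0.66 ± 0.49 had an adjusted p of 0.324 in edgeR's quasi-likelihood test. Its ratio was 1.26 (0.376 to 4.202) in Vp16-TRF1ΔN cells and 0.46 (0.221 to 0.901) in TRF1ΔN cells, and only the second interval excluded 1.

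All 3 LTBP genes rose. Ltbp1, the prototype of the family, which is linked covalently to the latent ligand, lies at chr17:75005568-75392512 on the plus strand. It had 526 and 644 CPM at 24 h in Vp16-TRF1ΔN and TRF1ΔN cells, against 224 and 220.3 CPM at 0 h. All treated values were above all untreated ones, and it rose by 1.39 ± 0.10 on the log2 scale (adjusted p = 0.00169, edgeR quasi-likelihood test). The ratio was 2.35 (2.296 to 2.41) in Vp16-TRF1ΔN cells and 2.92 (2.86 to 2.99) in TRF1ΔN cells.

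Ltbp2, which sits on fibrillin microfibrils and, unlike its relatives, is not known to bind latent TGFβ, lies at chr12:84783212-84876532 on the minus strand. It had 19.99 and 38.03 CPM at 24 h in Vp16-TRF1ΔN and TRF1ΔN cells, against 2.58 and 2.14 CPM at 0 h. Both treated libraries lay above both untreated ones. It rose by 3.57 ± 0.31 on the log2 scale (adjusted p = 0.00237, edgeR quasi-likelihood test) and ranked 223 among 14305 genes by size of rise. The ratio was 7.76 (6.34 to 9.57) in Vp16-TRF1ΔN cells and 17.8 (14.5 to 21.9) in TRF1ΔN cells. The antisense gene D030025P21Rik shares 764 bases with its exons and had 28 and 95 counts at 24 h, against 11 and 17 at 0 h, in Vp16-TRF1ΔN and TRF1ΔN cells. The strand setting of the counting is not given in the sources used here, so reads from the shared stretch cannot be assigned with certainty.

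Ltbp3, at chr19:5740904-5758532 on the plus strand, encodes an LTBP known for roles in bone and teeth. It had 199 and 206 CPM at 24 h in Vp16-TRF1ΔN and TRF1ΔN cells, against 130.5 and 108 CPM at 0 h. The times did not overlap, and it rose by 0.77 ± 0.10 on the log2 scale (adjusted p = 0.00560, edgeR quasi-likelihood test). Without the untreated TRF1ΔN library and the line term the call was lost (log2 change 0.63, adjusted p = 0.0553). Its ratio was 1.52 (1.47 to 1.58) in Vp16-TRF1ΔN cells and 1.92 (1.85 to 1.98) in TRF1ΔN cells.

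Per length, the make-up of the LTBP RNA differed between times in both lines. Ltbp1 held 66.9% and 68.8% of the summed RPKM of the 3 genes at 24 h in Vp16-TRF1ΔN and TRF1ΔN cells, against 58.7% and 62.96% at 0 h. Ltbp2 held 3.32% and 5.302% at 24 h, against 0.883% and 0.799% at 0 h. The share of Ltbp3 was 29.8% and 25.9% at 24 h, against 40.4% and 36.2% at 0 h.

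The promoters of Ltbp2 and Ltbp3 are shown as those of the LTBP genes that rose most and least, in the same form as above.
Ltbp2, chr12:84876442-84876741, minus strand: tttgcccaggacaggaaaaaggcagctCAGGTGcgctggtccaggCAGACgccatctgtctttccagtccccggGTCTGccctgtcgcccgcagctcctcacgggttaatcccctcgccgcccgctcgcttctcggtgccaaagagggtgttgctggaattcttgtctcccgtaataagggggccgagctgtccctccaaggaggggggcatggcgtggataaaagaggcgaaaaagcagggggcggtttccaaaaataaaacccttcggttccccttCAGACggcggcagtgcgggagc
Ltbp3, chr19:5740650-5740949, plus strand: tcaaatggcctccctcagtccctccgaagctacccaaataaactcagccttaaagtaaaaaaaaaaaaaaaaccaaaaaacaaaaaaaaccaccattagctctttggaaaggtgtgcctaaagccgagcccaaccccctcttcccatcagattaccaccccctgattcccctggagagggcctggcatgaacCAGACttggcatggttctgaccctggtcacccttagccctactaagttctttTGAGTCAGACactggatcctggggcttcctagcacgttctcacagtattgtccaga
The Ltbp2 window holds 3 CAGAC matches, at positions -205, -176 (as GTCTG) and 28, and a CAGGTG match at -223. The Ltbp3 window holds CAGAC at -58 and -1, the second of which overlaps an AP-1 match that begins at -6. RefSeq promoter windows were found for 7 of the 10 genes, and those without one were Tgfb3, Tgfbr3 and Lrrc32. A match is only a run of letters and no binding was measured.

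Lrrc32, at chr7:98489283-98502181 on the plus strand, was the member that differed most between the lines, and with Ltbp2 it had the largest TGFβ changes. It had 731 counts (21.3 CPM) at 24 h and 39 counts (0.905 CPM) at 0 h in Vp16-TRF1ΔN cells, and 2799 counts (66.5 CPM) at 24 h and 341 counts (7.16 CPM) at 0 h in TRF1ΔN cells. Each treated library was above both untreated ones, and within each time the Vp16-TRF1ΔN library was the lower. Lrrc32 rose with TGFβ by 3.66 ± 0.31 on the log2 scale (adjusted p = 0.00231, edgeR quasi-likelihood test) and ranked 216 of 14305 genes by size of rise. Its TGFβ change and that of Ltbp2 (3.57) differed by less than their SE, and the order turned with the line term dropped (3.43 for Lrrc32 and 3.62 for Ltbp2). With the line term dropped, the call was lost without the Vp16-TRF1ΔN library at 0 h (2.62, adjusted p = 0.0631) and without the TRF1ΔN library at 24 h (2.37, adjusted p = 0.0543). The ratio was 23.6 (17.1 to 33.4) in Vp16-TRF1ΔN cells and 9.29 (8.299 to 10.4) in TRF1ΔN cells. Thus treated Vp16-TRF1ΔN cells held 4.55 RPKM, above untreated TRF1ΔN cells at 1.53 RPKM and below treated TRF1ΔN cells at 14.2 RPKM.

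Ratios were also counted within each line, as at least 2-fold with a 95% counting interval that excludes 1, over the 11777 genes that averaged 1 CPM or more. Of the 9 members that did so, 3 were counted as higher at 24 h in Vp16-TRF1ΔN cells (Ltbp1, Ltbp2 and Lrrc32) and 0 as lower, against 6.92% and 9.09% of all genes. In TRF1ΔN cells 5 were counted as higher, with Tgfb2 and Tgfb3 besides those, and 0 as lower, against 8.4% and 10.9% of all genes. Tgfb2 lay just past 2-fold in TRF1ΔN cells, at 2.09 (1.896 to 2.31), and below it in Vp16-TRF1ΔN cells, at 1.75 (1.57 to 1.95).

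**Figure D2:**
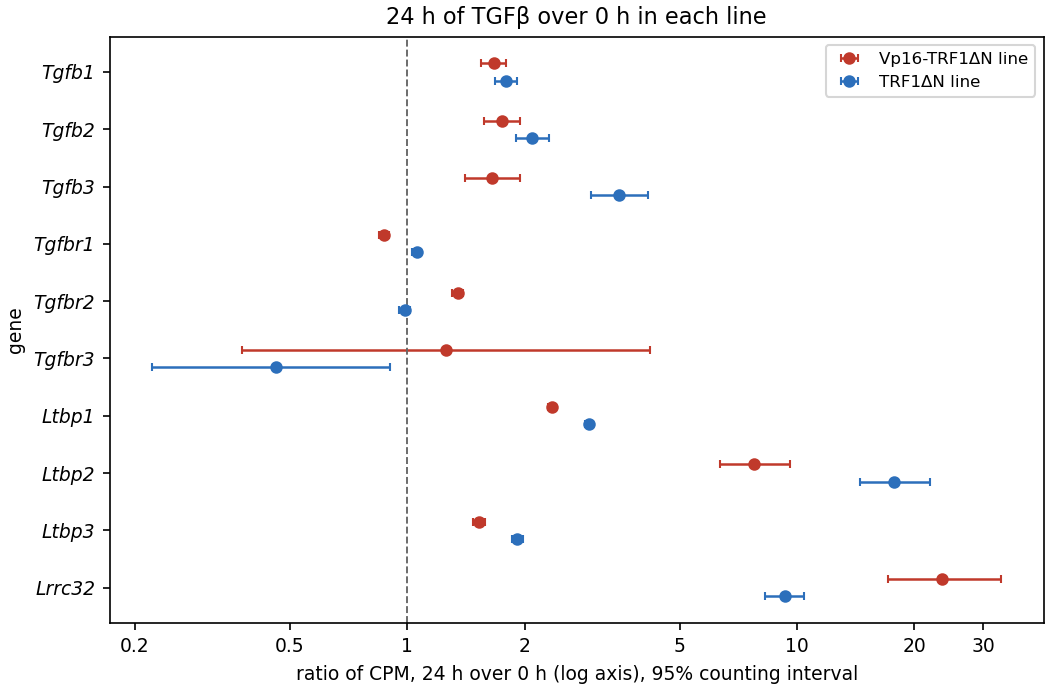
Ratio of CPM at 24 h of TGFβ over 0 h (horizontal, log axis) for the 10 genes (vertical), with 95% counting intervals, in red for Vp16-TRF1ΔN and blue for TRF1ΔN, 1 library per group. Ligands, LTBP genes and Lrrc32 lie right of 1 in both lines, from 1.52 to 23.6, and the receptors scatter about 1.

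The second question was how the lines differ in these genes. Counted by the same rule of 2-fold ratios, Lrrc32 was the only one of the 9 eligible members counted, at both times and as lower in Vp16-TRF1ΔN cells. It was 3.12-fold lower at 24 h (2.87 to 3.39) and 7.91-fold lower at 0 h (5.67 to 11.3). Over all such genes 1.18% were counted as lower at 24 h and 0.416% at 0 h, and 2.11% and 0.178% as higher. These ratios compare single libraries and have no test.

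In the additive fit, which averages over both times, none of the 10 genes passed and 0% of all genes did (edgeR quasi-likelihood test), with 1779 of 14305 genes at an unadjusted p under 0.05. DESeq2's Wald test called 46 of 14729 genes, of which Lrrc32 was the only member. The line term of Lrrc32 was -2.04 ± 0.30, the 51st lowest of all genes tested, with an unadjusted p of 0.00171 and an adjusted p of 0.397 in edgeR's test. It was -2.23 with an adjusted p of 1.91e-09 in DESeq2's test, and -2.04 with an adjusted p of 0.00378 in edgeR's test without a filter on low counts. In the other settings with a test, its adjusted p lay between 0.287 and 0.99993. Tgfbr3 followed at -1.42 ± 0.51 (adjusted p = 0.399, edgeR) on few counts. The median line term of the 10 genes was -0.11 and that of all genes was -0.01.

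Apart from Lrrc32 and Tgfbr3, the ratios of the lines at 0 h lay between 0.96 and 1.56. Tgfbr3, which averaged under 1 CPM and so was not eligible for the 2-fold count, was at 0.242 at 0 h (0.0901 to 0.558). That ratio rests on 7 counts in Vp16-TRF1ΔN and 32 in TRF1ΔN cells. At 24 h Tgfbr3 was at 0.661 (0.223 to 1.78). At 0 h Tgfb3 stood highest, at 1.56 in Vp16-TRF1ΔN over TRF1ΔN cells (1.29 to 1.897), and Tgfb1, Tgfb2, Tgfbr2, Ltbp1 and Ltbp2 had intervals that included 1. At 24 h Tgfb3 was on the other side, at 0.7396 (0.645 to 0.847), and Ltbp2 was at 0.526 (0.4799 to 0.575). Tgfbr2 was the only one of the 10 above 1 at 24 h, at 1.38 (1.34 to 1.43). Ltbp3 was at 0.964 (0.934 to 0.995), Tgfbr1 at 0.922 (0.895 to 0.949) and Tgfb1 at 0.894 (0.8395 to 0.953). At 0 h Ltbp3 and Tgfbr1 were above 1, at 1.21 (1.17 to 1.26) and 1.12 (1.09 to 1.15).

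**Figure D3:**
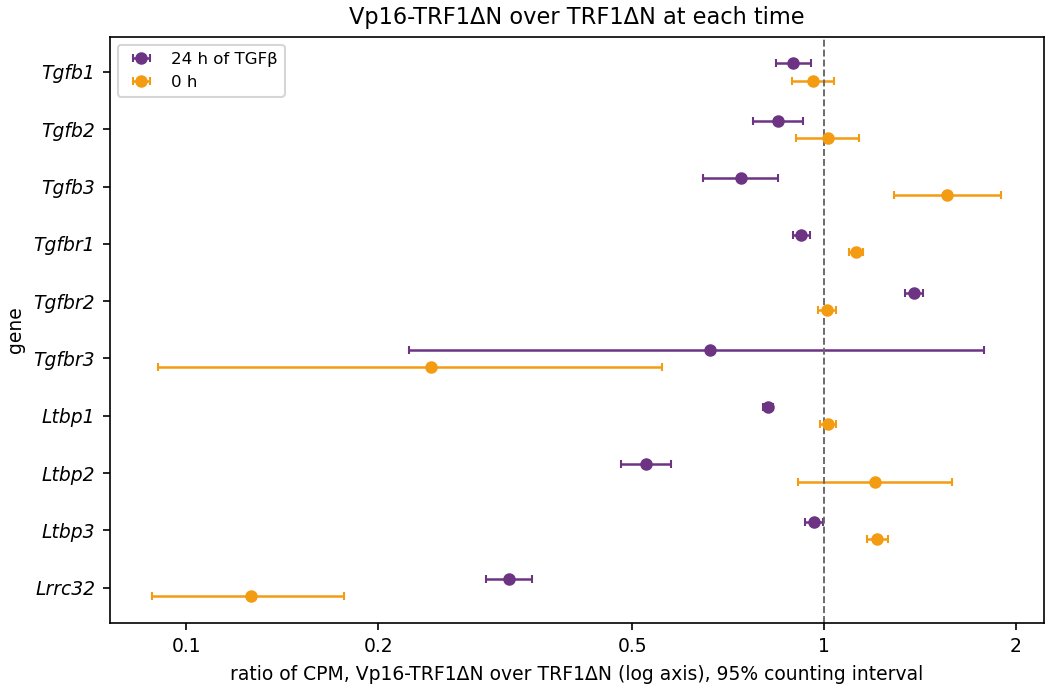
Ratio of CPM in Vp16-TRF1ΔN over TRF1ΔN cells (horizontal, log axis) for the 10 genes (vertical), with 95% counting intervals, in purple at 24 h of TGFβ and in orange at 0 h, 1 library per group. Lrrc32 lies left of 0.35 at both times, and Tgfbr2 lies right of 1 at 24 h. Tgfb2, Tgfb3, Tgfbr1, Ltbp1, Ltbp2 and Ltbp3 lie left of 1 at 24 h and right of it at 0 h. Of these, Tgfb2, Ltbp1 and Ltbp2 have intervals at 0 h that include 1.

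The third question was whether the TGFβ response itself differed between lines. It was taken as the log2 ratio of 24 h over 0 h in Vp16-TRF1ΔN cells minus that in TRF1ΔN cells, with an interval from Poisson counting error only and no test. Of the 9 members at 1 CPM or more 6 had an interval below 0 and 2 had one above 0, against 20.6% and 20.4% of all 11777 genes. Of the 7 members that rose, 5 had an interval below 0, a smaller rise in Vp16-TRF1ΔN cells (Tgfb2, Tgfb3, Ltbp1, Ltbp2 and Ltbp3), and 1 had an interval above 0 (Lrrc32). Among the 2954 genes that rose and averaged 1 CPM or more, 36.1% had an interval below 0 and 8.33% had one above 0. The median difference was -0.31 for the 7 members and -0.09 for those 2954 genes.

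The largest differences downward were those of Ltbp2 at -1.19 (-1.596 to -0.78) and Tgfb3 at -1.07 (-1.404 to -0.74), and Lrrc32 was at 1.28 (0.79 to 1.77). These 3 exceeded a difference of 2-fold, which 0.866% of all 11777 genes did downward and 1.68% upward. The differences of Ltbp3 (-0.33), Ltbp1 (-0.31), Tgfb2 (-0.26) and Tgfb1 (-0.10, interval -0.24 to 0.04) were small. Among the receptors Tgfbr2 was at 0.45 (0.39 to 0.52) and Tgfbr1 at -0.28 (-0.34 to -0.23). For Tgfb3 the gap came from both ends, with 9.98 CPM against 13.5 CPM at 24 h and 6.03 CPM against 3.86 CPM at 0 h in Vp16-TRF1ΔN and TRF1ΔN cells. For Lrrc32 the distance between the lines was 3.12-fold at 24 h and 7.91-fold at 0 h.

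The genes around Lrrc32 on chromosome 7 were examined for the same line difference. Of the 3 tested genes on each side, chosen by nearest annotated start, none had ratios as low as those of Lrrc32. Lrrc32 was picked here for its large line ratio. By the 2-fold rule above, 1.18% of 11777 genes were lower in Vp16-TRF1ΔN cells at 24 h and 0.416% at 0 h. Smaller ratios at 6 genes therefore cannot show whether the difference is local to Lrrc32. The log2 ratios of Vp16-TRF1ΔN over TRF1ΔN cells were -0.17 and -0.27 for Tsku at 24 h and 0 h, and -0.19 and -0.05 for Emsy, the closest neighbours. Thap12 had -0.45 and -0.13, Gm15506 -0.24 and 0.12, and Acer3 0.87 and -0.10. B3gnt6 had at most 13 counts in a library. None of these 6 genes passed the line term in edgeR's quasi-likelihood test, as no gene did.

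**Figure D4:**
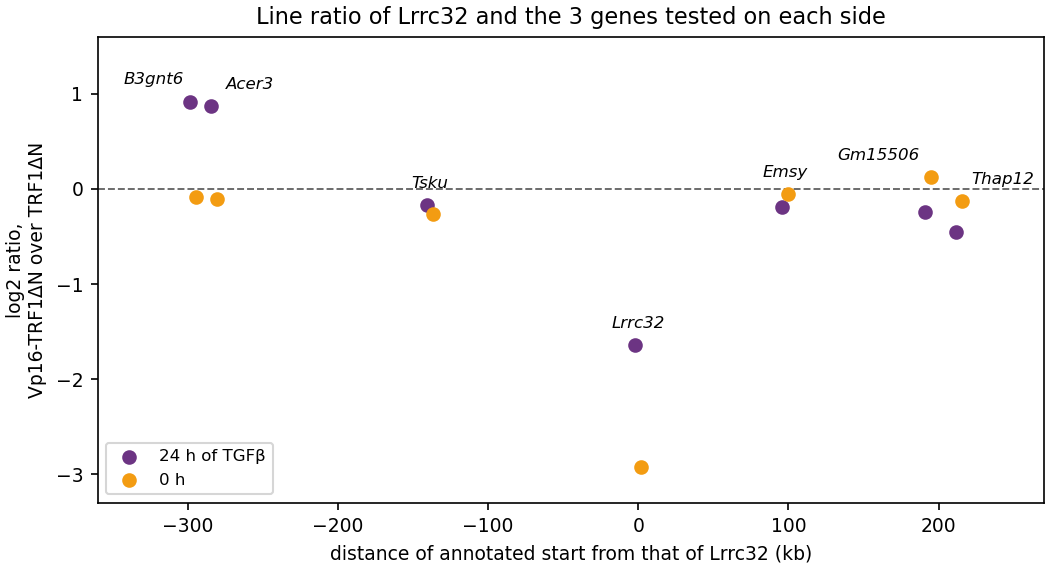
Log2 ratio of Vp16-TRF1ΔN over TRF1ΔN cells (vertical) against the distance of each gene's annotated start from that of Lrrc32 in kb (horizontal), in purple at 24 h of TGFβ and in orange at 0 h. Lrrc32 stands at -1.64 and -2.92 at 24 h and 0 h, while its 6 neighbours lie between -0.45 and 0.92.

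Genes with a pattern most like that of Lrrc32 were sought by the root mean square difference of log2 CPM, each gene centred on its mean over the 4 libraries, among 10043 genes that averaged 5 CPM or more. The nearest was Smoc2, which encodes a matricellular calcium-binding protein, at a difference of 0.62. It had 4.84 and 0.348 CPM in Vp16-TRF1ΔN cells at 24 h and 0 h, and 14.9 and 0.8396 CPM in TRF1ΔN cells. Timp3, a matrix-bound inhibitor of metalloproteinases, was next at 0.66, with 84.1 and 2.71 CPM in Vp16-TRF1ΔN cells and 248 and 9.07 CPM in TRF1ΔN cells. Col5a1, a type V collagen chain, followed at 0.74, with 82.03 and 4.27 CPM in Vp16-TRF1ΔN cells and 140.04 and 8.8998 CPM in TRF1ΔN cells. The likeness rests on 4 libraries and is a description only. It did not extend to the size of the difference of responses between the lines, which was 1.28 for Lrrc32. That difference was -0.45 (-1.34 to 0.44) for Smoc2, 0.16 (-0.14 to 0.46) for Timp3 and 0.28 (0.02 to 0.54) for Col5a1. None of the 3 passed the line term in edgeR's quasi-likelihood test (adjusted p of 0.0837 for Timp3 and at least 0.328 for the others).

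The surrounding pathway was described with lists of further genes, whose counts stand against 23.1% of all genes tested rising and 25.4% falling, with a median of -0.01. Of 6 tested partners and matrix anchors of the latent complex 5 rose and 0 fell, with a median log2 change of 2.26. Fbn1, the microfibril protein on which LTBPs are laid down, rose by 3.897 ± 0.28 and Emilin1, which restrains processing of the TGFβ precursor, by 3.82 ± 0.50. Fbn1 had 71 and 441 counts at 24 h in Vp16-TRF1ΔN and TRF1ΔN cells, against 9 and 28 at 0 h. Emilin1 had 36 and 151 counts at 24 h, against 7 and 7 at 0 h. Ltbp4, the remaining family member, rose by 0.53 ± 0.13 (adjusted p = 0.0288, edgeR quasi-likelihood test), and Nrros, the myeloid counterpart of Lrrc32, had at most 9 counts and was not tested.

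Of 15 tested activators of latent TGFβ 12 rose and 1 fell, with a median of 0.84. Thbs1, thrombospondin, which can activate latent TGFβ, had 839.6 and 1828 CPM at 24 h in Vp16-TRF1ΔN and TRF1ΔN cells, against 30.5 and 27.98 CPM at 0 h. It rose by 5.41 ± 0.37 on the log2 scale (adjusted p = 0.00149, edgeR quasi-likelihood test). The gelatinase gene Mmp9 had 48 and 194 counts at 24 h, against 1 and 1 at 0 h, a ratio of 60.4 (10.3 to 2434) in Vp16-TRF1ΔN cells and 220 (38.9 to 8716) in TRF1ΔN cells. Pcsk6, a proprotein convertase of the furin family, was the member that fell, by 2.76 on the log2 scale (SE 0.09), to 6.51 and 6.03 CPM at 24 h against 43.8 and 41.4 CPM at 0 h. The integrin genes Itgav, Itgb1, Itgb3, Itgb5 and Itgb6 all rose, between 0.22 for Itgb6, the partner best known for releasing TGFβ at epithelia, and 1.52 for Itgb1. Itgb8 had at most 17 counts and was not tested. The adjusted p of Itgb6 was 0.04498 in edgeR's quasi-likelihood test.

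Of 13 tested co-receptors and other receptors of the family 5 rose, 2 fell and 6 did not pass, with a median of 0.45, against 23.1% and 25.4% of all genes that rose and fell. Acvr1, a type I receptor used by BMPs and activins, rose by 1.97 ± 0.13, to 73.9 and 107.5 CPM at 24 h in Vp16-TRF1ΔN and TRF1ΔN cells against 22.3 and 23.4 CPM at 0 h. Vasn, a surface protein that traps TGFβ, rose by 1.45 ± 0.10. The activin receptors Acvr2a (-0.57 ± 0.07) and Acvr1b (-0.41 ± 0.07) fell, with adjusted p of 0.00470 and 0.0131 in edgeR's quasi-likelihood test.

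Of 4 tested activin and nodal type ligands 2 rose and 0 fell. Inhba, the activin A chain, rose by 3.21 ± 0.35 (adjusted p = 0.00377, edgeR quasi-likelihood test) and the ligand gene Gdf11 by 1.04 ± 0.12. Of 8 tested extracellular ligand traps 7 rose and 0 fell, but only 3 of them averaged 1 CPM or more. Fstl3, which binds activins, had 19 and 279 counts at 24 h in Vp16-TRF1ΔN and TRF1ΔN cells, against 10 and 11 at 0 h, and Fstl1 rose by 1.35 ± 0.24.

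Of 18 Smads and intracellular regulators 11 rose and 3 fell, with a median of 0.39. Ldlrad4 (2.51 ± 0.18) and Pmepa1 (2.15 ± 0.09), both inhibitors of receptor signalling to Smads, rose most, and the inhibitory Smad gene Smad6 fell (-0.39 ± 0.10, adjusted p = 0.0358, edgeR quasi-likelihood test), as did Tgfbrap1 (-0.25 ± 0.07). Of 8 direct TGFβ targets other than Tgfb1 and Ltbp2, 7 rose and 0 fell, and 3 of the 8 (Smad7, Skil and Pmepa1) also belong to the list of Smads and regulators. Among them Bhlhe40, a transcriptional repressor, rose by 2.53 ± 0.28 on the log2 scale. The sum of the fibroblast markers, most of it Col1a1, was higher at 24 h in the same libraries (sums above), and only 2 of the 7 markers were tested. The part of this in the rise of matrix genes was not tested.

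**Figure D5:**
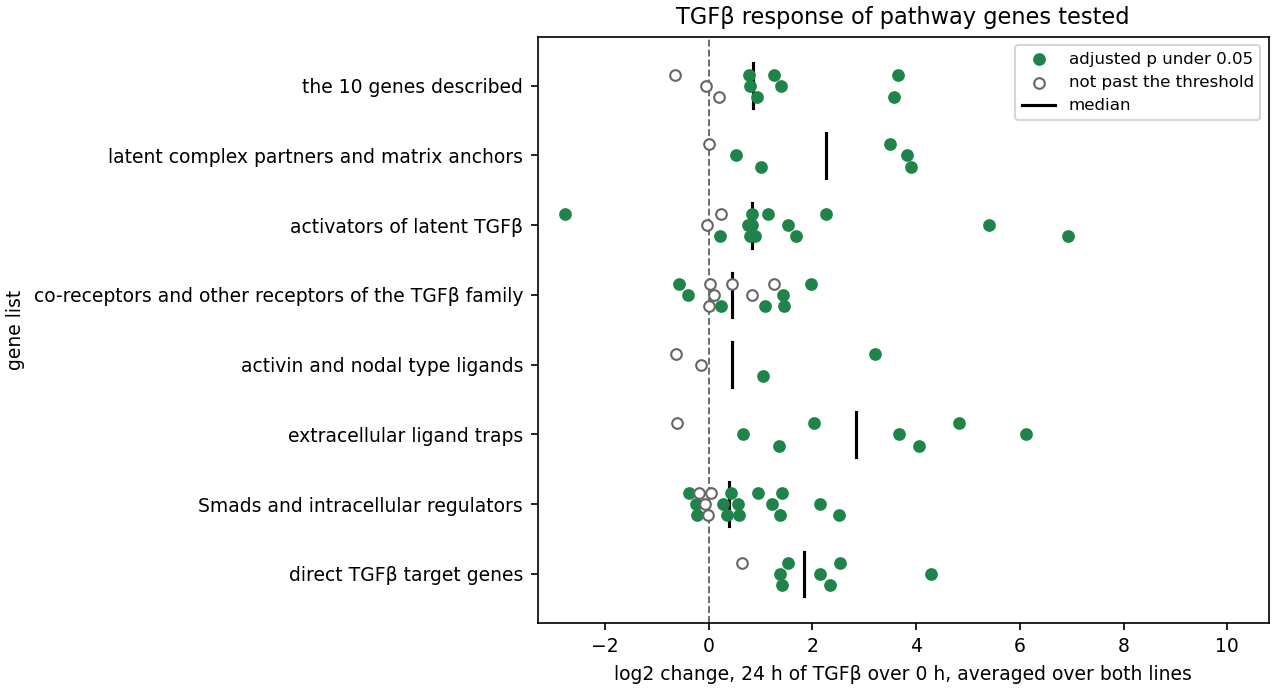
Log2 change of 24 h of TGFβ over 0 h, averaged over both lines (horizontal), for the 10 genes and for the tested genes of 7 lists without those 10 (vertical), 1 point per gene, filled where the adjusted p was under 0.05 and open otherwise, with a bar at the median. Most filled points lie right of 0, with Pcsk6 the lowest at -2.76 and Mmp9 the highest at 6.92.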

How the data were processed

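RNA-seq libraries were made from total RNA after removal of ribosomal RNA, per the labels' protocols. The submitters' processing notes name FastQC, STAR, HTSeq, DESeq2 and the build mm10, with no role or version recorded, and the deposited tables are titled as HTSeq counts. No source used here gives the annotation release or the strand setting. The deposited raw counts were used for all tests. The authors' deposited log2 values, which match log2(count / DESeq2 size factor + 1), served as an alternative.

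Members were matched by GENCODE M21 symbol, which was found for 21889 of 21971 genes. The 4 construct rows entered neither library sizes nor tests, and took at most 0.0582% of a library. Counts were scaled with TMM factors (edgeR 4.0.16, R 4.3.3), giving CPM, and divided by the union of annotated exons for RPKM. Genes passing filterByExpr (14305) entered an additive quasi-likelihood fit (biological coefficient of variation 0.0931, prior degrees of freedom 3.39), with p adjusted by Benjamini and Hochberg's method, two-sided. The SE was taken as |log2 change| / sqrt(F). Ratios of a pair of libraries carry exact 95% Clopper-Pearson counting intervals conditional on their sum, and differences of responses, with a prior count of 2, carry Poisson intervals. Intervals cover counting error only, and a count of 3 equals 0.0630 to 0.0875 CPM. DESeq2 1.42.0 was an alternative. Only the fit of the TGFβ term was tried on simulated counts, which held no difference between the lines. The other steps were not tried in this way.

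The members and lists were chosen with earlier results of these data known. All 10 members were named whatever their values, from each list up to 2 highest and 2 lowest called genes at a mean of 1 CPM or more, the 3 tested genes nearest on each side of the member with the largest line ratio, and the 3 genes of most similar pattern. Some further list genes (Ltbp4, Nrros and the integrins) were added after their values were seen. Promoter sequences are RefSeq's (GRCm38.p6). Some genes of the lists and some overlaps are not reported here.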

Additional observations from a re-analysis of the deposited data

Results flagged for a closer look

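All 3 receptor genes had ratios of 24 h over 0 h on opposite sides of 1 in the lines. The share of all genes that did so was not counted, so this count has no base rate beside it. The difference was not tested, since each group had 1 library. Tgfbr1 stood at 0.87 in Vp16-TRF1ΔN cells and 1.06 in TRF1ΔN cells, and it alone had counting intervals that excluded 1 in both lines. Tgfbr2 stood at 1.35 in Vp16-TRF1ΔN cells and 0.985 in TRF1ΔN cells, where its counting interval included 1. Tgfbr3 stood at 1.26 in Vp16-TRF1ΔN cells and 0.46 in TRF1ΔN cells, on at most 32 counts in a library. In Vp16-TRF1ΔN cells it had 7 counts at both times, and its counting interval (0.376 to 4.20) included 1. With 1 library per group, a single library could not be set against others of its group.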

How the results depend on the processing

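The 7 members that rose with TGFβ rose in all 5 alternatives with all 4 libraries and a test (DESeq2's Wald test, RLE factors, no filter on low counts, mitochondrial genes left out, and no line term), and the authors' log2 values gave the same direction. With 1 library and the line term left out, log2 changes ranged from 2.366 to 5.598 for Lrrc32, 0.96 to 1.604 for Tgfb3, 0.63 to 0.91 for Ltbp3 and -0.034 to 0.42 for Tgfbr2, and 5 to 7 members were called as higher. Those fits called 1013 to 3323 genes as higher and 1228 to 3618 as lower, with 1013 and 1228 without the TRF1ΔN library at 0 h and 1173 and 1352 without the Vp16-TRF1ΔN library at 0 h, against 3305 and 3631 with all 4 libraries, and assume that a lone library varies like the pair at the other time. No paired analysis was possible because each group has 1 library, beyond the line term itself, and dropping that term (no replicate block) gave 2850 genes higher and 2994 lower. For the line term, DESeq2 called 12 genes higher and 34 lower of 14729, with 1 member lower (Lrrc32, -2.23). The fit with no filter gave 28 and 81 of 21971, with 1 member lower (Lrrc32, -2.04). Leaving out mitochondrial genes gave 0 and 4 of 14309, none of them a member. The cause of these changes in the counts was not tested. No scaling moved the median of all genes by more than 0.1 on the log2 scale. Depth limits Tgfbr3, with at most 32 counts.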

Other observations

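Genes of activin and nodal type ligands and of ligand traps differed between the lines in both directions. Inhba had 66.2 and 11.5 CPM in Vp16-TRF1ΔN cells at 24 h and 0 h, and 185 and 12.7 CPM in TRF1ΔN cells, a ratio of 5.75 (5.22 to 6.35) in Vp16-TRF1ΔN cells and 14.6 (13.4 to 15.9) in TRF1ΔN cells. The difference of its log2 ratios was -1.34 (-1.53 to -1.16, counting error only). For Fstl3, which binds the activin that Inhba encodes, the ratio was 2.39 (1.06 to 5.75) in Vp16-TRF1ΔN cells and 28.7 (15.8 to 58.2) in TRF1ΔN cells, a difference of -3.48 (-4.88 to -2.07). The activin chain gene Inhbb lay the other way, with 5.84 and 3.596 CPM in Vp16-TRF1ΔN cells at 24 h and 0 h, and 3.35 and 6.57 CPM in TRF1ΔN cells, a difference of 1.65 (1.24 to 2.07). So did Lefty1 at 1.31 (0.66 to 1.96), Gdf11 at 0.34 (0.14 to 0.55) and the activin trap gene Fst at 0.44 (0.29 to 0.58). Inhbb, Lefty1 and Fst, and the comparison of Inhba, Gdf11 and Fstl3, were picked after their values were seen.

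Of the 10 direct TGFβ targets, Tgfb1 and Ltbp2 included, 9 rose with TGFβ, 8 had an interval of the difference below 0 and 0 had one above 0. Among the 2954 genes that rose and averaged 1 CPM or more, 36.1% had an interval below 0 and 8.33% had one above 0. The other lists mix genes that rose with others, and stand against 20.6% below and 20.4% above among all 11777 genes. The counts below and above 0 were 9 and 3 of 18 Smads and regulators, 7 and 4 of 15 activators of latent TGFβ, and 5 and 2 of 11 co-receptors and other receptors. They were 2 and 1 of 6 partners and matrix anchors, 1 and 3 of 4 activin and nodal type ligands, and 1 and 1 of 3 ligand traps.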
